A study of Mus musculus with 6 samples.

Results

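The 37 genes described here encode proteins that make ribosomes in the nucleolus or finish them afterwards. They were named by function, and each was read from the probe set that the platform annotation gives to that gene alone, the brightest by its mean over the 6 arrays where there were several. That mean is the measured value the rule uses, and the list itself was drawn up with results of this comparison known, so the counts below describe the list and do not test it. Of the 37 genes, 36 were measured among 19938 genes in all, and Npm3 had no probe set of its own in the annotation used. All 36 had a 6-array mean above the intensity filter of log2 7.49, so the filter removed none of them. Wdr12 passed it only through its LysMCre/Cre arrays.

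The arrays carried RNA from peritoneal macrophages of 8-week-old C57BL/6 mice, collected 72 h after an injection of thioglycolate broth (2 ml), which recruits monocytes and other leukocytes to the abdomen. Adherent cells were kept and exposed for 6 h to 100 ng/ml of lipopolysaccharide (LPS), the endotoxin of Gram-negative bacteria that Tlr4 detects. One group of 3 arrays was labelled KLF2∆/∆, meaning LysMCre/Cre mice that also carry a floxed Klf2 gene (KLF2 FL/FL), and the other 3 arrays were labelled LysMCre/Cre. Both groups thus carry the Cre recombinase in the lysozyme gene of myeloid cells, and neither was left without LPS, so the genotypes are compared after LPS and the response to LPS is not measured. Cells other than myeloid ones would keep Klf2 under this Cre, and the labels describe no sort. No label links an array to an animal, so the p-values rest on the variation among arrays, which may be technical.

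Klf2 itself had log2 intensities of 9.10, 9.25 and 9.21 in arrays labelled KLF2∆/∆, against 8.88, 8.97 and 8.94 in LysMCre/Cre arrays. Its signal was higher in the arrays labelled as deleted, by 0.26 ± 0.064 on the log2 scale (SE, n = 3 each, limma adjusted p = 0.00398). The sources used here do not say where its probes lie relative to the floxed part, and probes outside it would check nothing. Directions below therefore follow the labels as deposited. Pearson's r across tested genes ran from 0.9944 to 0.9972 for pairs of arrays of 1 group and from 0.9814 to 0.9858 for pairs of different groups, where genes are not independent replicates.

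Ribosome production starts with RNA polymerase I, which copies the ribosomal DNA into a long precursor. Small nucleolar ribonucleoproteins (snoRNPs) then modify the precursor. Their box C/D class adds methyl groups and their box H/ACA class makes pseudouridine. Processing factors cut and fold the RNA into the small and large subunits, which are completed in the cytoplasm. The pathway is costly, is a classic target of the transcription factor Myc, and is high in growing and dividing cells, including macrophages that respond to growth factors.

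Most of the listed transcripts were lower in arrays labelled KLF2∆/∆ than in LysMCre/Cre arrays, by small amounts and with at least 1 call in each of the 7 role groups. Of 36 tested members, 32 fell, none rose and 4 did not pass (limma, adjusted p at most 0.05 over all tested genes). These were 88.9% lower and 0% higher of the members, where 29.8% of all 12649 tested genes were called, 16.2% lower and 13.6% higher. Without moderation of the variances, 20 were called lower and 0 higher, where 1155 of all 12649 tested genes were called lower and 969 higher. At an unadjusted p of 0.05 the members' counts were again 32 lower and 0 higher. All tested genes were not counted at that level, so these counts have no share to stand beside. The median change of the members was -0.34 on the log2 scale, beside 0.0019 over all tested genes. The changes ran from -0.75 for Dkc1 to 0.051 for Wdr43. Only Dkc1 and Ncl were lower by 1.5-fold or more, a size reached by 319 tested genes (2.52%), and no member changed by 2-fold. In 32 of 36 members the values of the groups did not overlap, and among all tested genes 40.8% had no overlap, 21.4% with the lower values in arrays labelled KLF2∆/∆. Fewer cells of a type and less RNA per cell cannot be told apart in these bulk samples, and ribosomal RNA itself was not analysed here.

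**Figure D1:**
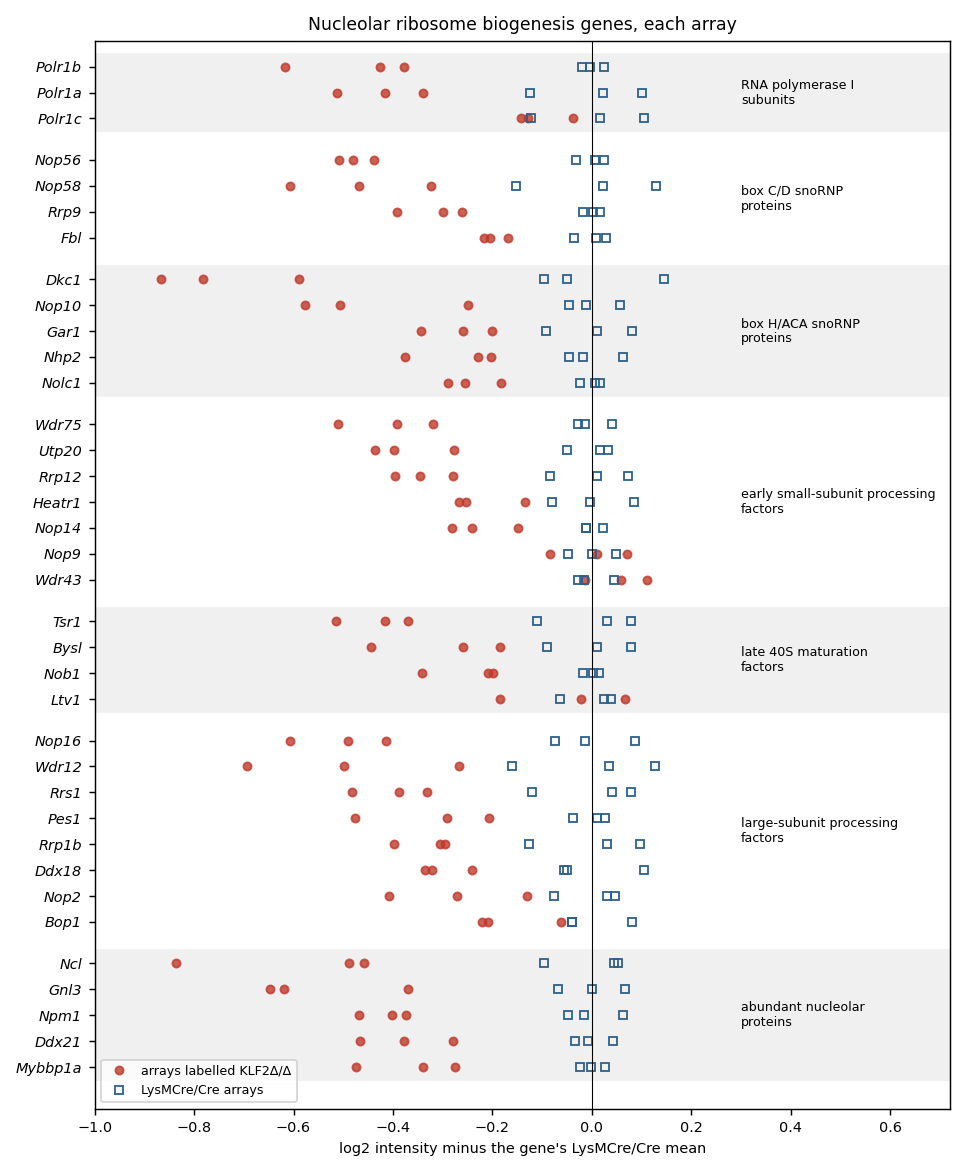
Each row is 1 of the 36 measured members, grouped by role, and the horizontal axis is log2 intensity minus that gene's mean in the LysMCre/Cre arrays. Filled circles are the 3 arrays labelled KLF2∆/∆ and open squares the 3 LysMCre/Cre arrays. The circles lie left of the squares in 32 rows and mix with them for Polr1c, Nop9, Wdr43 and Ltv1.

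The 3 arrays of a group did not lie equally far from the rest. The median deviation of the members from their own 6-array mean was -0.191, -0.091 and -0.207 in replicates 1, 2 and 3 labelled KLF2∆/∆, against 0.171, 0.178 and 0.158 in the LysMCre/Cre arrays. Replicate 2 labelled KLF2∆/∆ was thus nearest to the other group, and it held the lowest of the 6 values for 0 members, while replicates 1 and 3 held it for 14 and 21. The same deviation over all tested genes stayed between -0.018 and 0.017 on each array. The median SD of the members was 0.0852 in arrays labelled KLF2∆/∆ and 0.0617 in LysMCre/Cre arrays, and over all tested genes 0.0798 in arrays labelled KLF2∆/∆ and 0.0529 in LysMCre/Cre arrays.

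Of the enzyme that starts the pathway, transcripts of the 2 largest subunits fell. Polr1b, the second-largest subunit of RNA polymerase I, had log2 intensities of 8.85, 9.09 and 9.05 in arrays labelled KLF2∆/∆, against 9.49, 9.47 and 9.45 in LysMCre/Cre arrays. Each value labelled KLF2∆/∆ lay below every LysMCre/Cre value, and the change was -0.47 ± 0.067 (SE, adjusted p = 1.55e-05). Polr1a, the largest subunit, had 8.56, 8.74 and 8.66 in arrays labelled KLF2∆/∆, against 8.95, 9.18 and 9.10 in LysMCre/Cre arrays, a change of -0.42 ± 0.072 (adjusted p = 0.000112), again without overlap. Polr1c, a subunit shared with RNA polymerase III, had 9.94, 10.05 and 9.96 in arrays labelled KLF2∆/∆, against 10.10, 10.19 and 9.96 in LysMCre/Cre arrays. These values overlapped, and the change of -0.10 ± 0.062 did not pass (adjusted p = 0.245). Nor did Polr1d, Polr1e, Polr1f, Polr1g and Polr1h, subunits that are no members (adjusted p of 0.0732 to 0.897).

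All 4 box C/D snoRNP proteins among the members fell, a list that need not hold every protein of the particle. Nop56, a core protein of the particle, had 10.39, 10.43 and 10.36 in arrays labelled KLF2∆/∆, against 10.89, 10.87 and 10.84 in LysMCre/Cre arrays. The spread within each group was small beside the change of -0.48 ± 0.049 (SE, adjusted p = 2.62e-07). Its paralogue Nop58 had 8.23, 8.51 and 8.36 in arrays labelled KLF2∆/∆, against 8.68, 8.86 and 8.96 in LysMCre/Cre arrays, with a change of -0.47 ± 0.082 (adjusted p = 0.000164) and a wider spread in both groups. Rrp9, a protein of the U3 snoRNP that guides early cleavage, had 9.30, 9.43 and 9.39 in arrays labelled KLF2∆/∆, against 9.68, 9.71 and 9.70 in LysMCre/Cre arrays (-0.32 ± 0.059, adjusted p = 0.000291). Fbl, fibrillarin, the methyltransferase of the particle, had 9.30, 9.34 and 9.29 in arrays labelled KLF2∆/∆, against 9.51, 9.53 and 9.47 in LysMCre/Cre arrays. Its change of -0.20 ± 0.058 was the smallest of the 4 (adjusted p = 0.0132), and the call was lost without LysMCre/Cre replicate 1 (adjusted p = 0.0598) or replicate 2 (0.0736). A second, dimmer probe set of Fbl gave a change of -0.38, but 17 of the 20 annotated identifiers nearest to it belong to chromosome 17, while Fbl lies on chromosome 7, so that value is uncertain.

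The box H/ACA particle held the largest change of all members. Dkc1, dyskerin, the pseudouridine synthase that also belongs to telomerase, had 7.93, 8.12 and 7.85 in arrays labelled KLF2∆/∆, against 8.86, 8.62 and 8.66 in LysMCre/Cre arrays. The groups lay apart, with a change of -0.75 ± 0.082 (SE, 1.68-fold lower, adjusted p = 5.79e-07). Nop10, a small core protein of the particle, had 9.44, 9.70 and 9.37 in arrays labelled KLF2∆/∆, against 9.90, 10.01 and 9.94 in LysMCre/Cre arrays (-0.44 ± 0.072, adjusted p = 7.4e-05). Gar1, another core protein, had 9.01, 9.07 and 8.93 in arrays labelled KLF2∆/∆, against 9.35, 9.28 and 9.18 in LysMCre/Cre arrays (-0.27 ± 0.066, adjusted p = 0.00372). Nolc1, a chaperone that moves snoRNPs through the nucleolus, had 9.16, 9.27 and 9.20 in arrays labelled KLF2∆/∆, against 9.43, 9.47 and 9.46 in LysMCre/Cre arrays (-0.24 ± 0.059, adjusted p = 0.00368). The last core protein, Nhp2, fell as well, by 0.27 on the log2 scale (adjusted p = 0.00407). All 5 thus fell without overlap between groups, and the changes of the 4 particle proteins ran from -0.75 to -0.27.

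Early factors of the small subunit, which build the processome on the nascent precursor, were less uniform: 5 of 7 fell and 2 did not pass. Wdr75, a protein of the complex that joins polymerase I transcription to processing, had 8.97, 9.04 and 8.85 in arrays labelled KLF2∆/∆, against 9.35, 9.34 and 9.40 in LysMCre/Cre arrays (-0.41 ± 0.065, SE, adjusted p = 5.45e-05). Utp20, a very large scaffold protein, had 8.97, 9.09 and 8.93 in arrays labelled KLF2∆/∆, against 9.39, 9.32 and 9.40 in LysMCre/Cre arrays (-0.37 ± 0.063, adjusted p = 0.000129). Neither gene had any overlap between the groups. Rrp12, which in yeast takes part in subunit export, had 8.39, 8.32 and 8.27 in arrays labelled KLF2∆/∆, against 8.74, 8.68 and 8.59 in LysMCre/Cre arrays (-0.34 ± 0.069, adjusted p = 0.000672). Heatr1, a partner of Wdr75 in the same complex, had 9.48, 9.60 and 9.46 in arrays labelled KLF2∆/∆, against 9.65, 9.82 and 9.73 in LysMCre/Cre arrays. The gap between its groups was narrow, and the call (-0.22 ± 0.062, adjusted p = 0.0108) was lost without LysMCre/Cre replicate 2 (adjusted p = 0.0902). Nop14, another processome protein, fell by 0.22 on the log2 scale (adjusted p = 0.0113) and also lost its call without that array (0.0537). Wdr43, a further member of the Wdr75 complex, changed by 0.051 ± 0.050 (adjusted p = 0.503), and Nop9, an RNA-binding processome protein, by -0.00072 ± 0.065 (adjusted p = 0.995). Both had overlapping groups, and for Nop9 the sign turned to 0.054 after quantile normalization.

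Late factors of the small subunit act on the particle as it leaves the nucleolus, and 3 of 4 fell. Tsr1, a GTPase-like protein that in yeast blocks early joining of subunits, had 8.40, 8.45 and 8.30 in arrays labelled KLF2∆/∆, against 8.71, 8.90 and 8.85 in LysMCre/Cre arrays (-0.43 ± 0.071, SE, adjusted p = 7.4e-05). Nob1, the nuclease known to make the final cut of the small-subunit RNA, had 9.60, 9.75 and 9.73 in arrays labelled KLF2∆/∆, against 9.95, 9.96 and 9.93 in LysMCre/Cre arrays (-0.25 ± 0.058, adjusted p = 0.00235). Bysl, bystin, had 8.31, 8.57 and 8.49 in arrays labelled KLF2∆/∆, against 8.83, 8.66 and 8.76 in LysMCre/Cre arrays (-0.30 ± 0.075, adjusted p = 0.00467). For Bysl the highest value labelled KLF2∆/∆ lay just under the lowest LysMCre/Cre value. Ltv1, an export adaptor in yeast, had 9.33, 9.41 and 9.16 in arrays labelled KLF2∆/∆, against 9.29, 9.37 and 9.39 in LysMCre/Cre arrays. Its groups overlapped and its change of -0.047 ± 0.068 did not pass (adjusted p = 0.675). Without KLF2∆/∆ replicate 3 the sign of Ltv1 turned, to 0.022.

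All 8 large-subunit processing factors among the members fell. Nop16 had 9.56, 9.75 and 9.67 in arrays labelled KLF2∆/∆, against 10.25, 10.09 and 10.15 in LysMCre/Cre arrays, a change of -0.50 ± 0.063 (SE, adjusted p = 2.88e-06). Rrs1, which in yeast brings the small 5S particle into the precursor, had 7.98, 8.04 and 7.89 in arrays labelled KLF2∆/∆, against 8.45, 8.25 and 8.41 in LysMCre/Cre arrays (-0.40 ± 0.074, adjusted p = 0.000301). Both genes lay lower in every array labelled KLF2∆/∆ than in any LysMCre/Cre array. Pes1, Bop1 and Wdr12 form the PeBoW complex, needed to mature the large-subunit RNA. Wdr12 had 7.35, 7.59 and 7.16 in arrays labelled KLF2∆/∆, against 7.69, 7.89 and 7.98 in LysMCre/Cre arrays (-0.49 ± 0.098, adjusted p = 0.000656). Its mean in arrays labelled KLF2∆/∆, 7.37, lay under the filter level, while its LysMCre/Cre mean was 7.85. Wdr12 was thus tested only through the group where it was high, and its change and call are given as measured. Pes1 had 9.60, 9.68 and 9.41 in arrays labelled KLF2∆/∆, against 9.85, 9.90 and 9.91 in LysMCre/Cre arrays (-0.33 ± 0.066, adjusted p = 0.000705). Bop1 had the smallest called change of the members, -0.16 ± 0.059 (adjusted p = 0.0421). Its call was lost under 9 of 15 alternatives, where its adjusted p spanned 0.00908 to 0.233. These included leaving out replicate 1 or 3 labelled KLF2∆/∆ (adjusted p = 0.128 and 0.111) and each LysMCre/Cre array (0.0648, 0.233 and 0.0693 without replicates 1, 2 and 3). The RNA methyltransferase Nop2 changed by -0.27 (adjusted p = 0.0039), Rrp1b by -0.33 (0.00158) and the RNA helicase Ddx18 by -0.30 (0.0011).

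The abundant proteins of the nucleolus fell in all 5 measured cases. Npm1, nucleophosmin, the histone and ribosome chaperone of the granular zone, had 10.80, 10.77 and 10.71 in arrays labelled KLF2∆/∆, against 11.16, 11.13 and 11.24 in LysMCre/Cre arrays (-0.41 ± 0.049, SE, adjusted p = 1.68e-06). Ncl, nucleolin, which binds the nascent precursor, had 10.43, 10.46 and 10.08 in arrays labelled KLF2∆/∆, against 10.82, 10.97 and 10.96 in LysMCre/Cre arrays (-0.59 ± 0.076, 1.51-fold lower, adjusted p = 4.31e-06). Replicate 3 labelled KLF2∆/∆ was the lowest array for both, by a wide margin for Ncl, whose change without that array was -0.47. Gnl3, nucleostemin, a GTPase of stem and dividing cells, had 8.65, 8.93 and 8.68 in arrays labelled KLF2∆/∆, against 9.23, 9.37 and 9.30 in LysMCre/Cre arrays (-0.55 ± 0.074, adjusted p = 8.77e-06). Ddx21, an RNA helicase that senses polymerase I activity, had 10.71, 10.81 and 10.62 in arrays labelled KLF2∆/∆, against 11.13, 11.08 and 11.05 in LysMCre/Cre arrays (-0.37 ± 0.053, adjusted p = 1.44e-05). Mybbp1a, a Myb-binding protein of the nucleolus, fell by 0.36 on the log2 scale (adjusted p = 3.94e-05). None of the 5 had overlapping groups.

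Several members have more than 1 probe set, and Npm1 is known for many processed copies in the genome that probes can share. The 3 probe sets that name Npm1 together with the predicted gene Gm15484 were not used, and their changes were -0.35, -0.40 and -0.40, against -0.41 for the chosen one. The second probe set of Wdr12 gave -0.70, against -0.49 for the chosen one, and that of Ddx18 gave -0.24, against -0.30. The direction was thus the same in every probe set naming these genes. The identifiers on this array largely follow the chromosomes, and those of the chosen Wdr12 and Ddx18 probe sets sit among genes of other chromosomes than their own. Of the 20 nearest identifiers with a known gene, 18 belonged to chromosome 7 for Wdr12 and 17 to chromosome 6 for Ddx18, while both genes lie on chromosome 1. The values of these 2 members are uncertain for that reason. Their second probe sets do sit among chromosome 1 genes, with 18 of 20 nearest identifiers for Wdr12 and 19 of 20 for Ddx18. That of Wdr12 had a mean of 7.38, under the filter level, so on its own it would not have been tested. The 3 unused Npm1 probe sets sit among genes of chromosomes 10, 10 and 9, while Npm1 lies on chromosome 11. They may share signal with the chosen one, so their equal direction is not separate evidence.

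**Figure D2:**
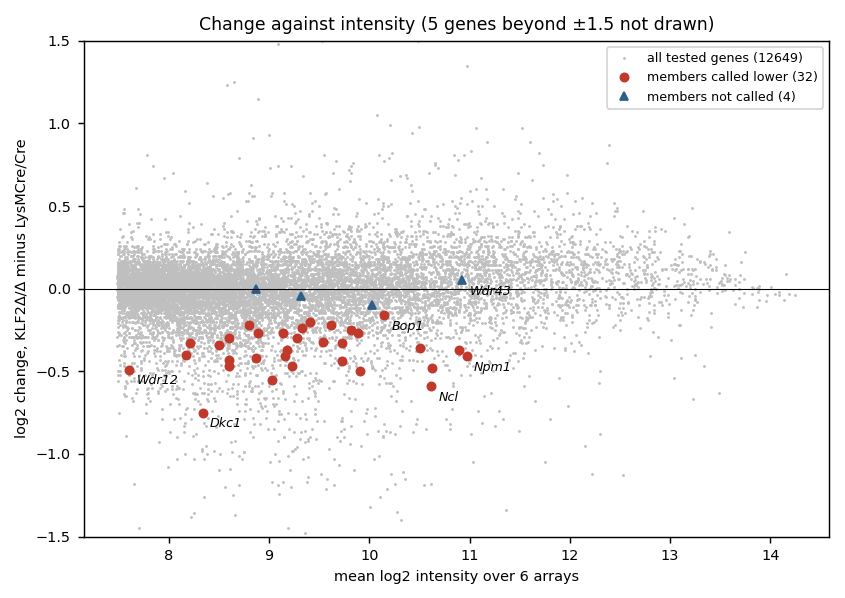
The log2 change (arrays labelled KLF2∆/∆ minus LysMCre/Cre) is drawn against the mean log2 intensity of the 6 arrays, with all 12649 tested genes as grey dots and 5 genes beyond 1.5 left out. The 32 members called lower (red circles) lie below 0 at all intensities between Wdr12 and Npm1, and the 4 members not called (blue triangles) lie near 0.

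The rest of the ribosome pathway was read from lists of other genes. Of 12 further genes of the polymerase I machinery, 2 fell, none rose and 10 did not pass, a share lower of 16.7% beside 16.2% of all tested genes. The initiation factors Taf1d and Rrn3 were the 2 that fell, by 0.37 (adjusted p = 4.69e-05) and 0.23 (adjusted p = 0.00258). Of 46 other small-subunit factors tested, 13 fell, 3 rose and 30 did not pass (28.3% lower), led by Utp4 (-0.47, adjusted p = 4.13e-06), Imp3 (-0.40, 1.59e-05), Wdr36 (-0.36, 0.000355) and the RNA acetyltransferase Nat10 (-0.34, 0.000743). The 3 that rose, named after their values were seen, were Utp11 (0.24), Ddx52 (0.24) and Imp4 (0.19). Of 45 other large-subunit factors tested, 16 fell and none rose (35.6% lower), led by the giant ATPase Mdn1 (-0.48, adjusted p = 1.2e-05), Ftsj3 (-0.40, 0.000243), Nol9 (-0.25, 0.00232) and Nip7 (-0.30, 0.00311). The medians of these lists were -0.053, -0.10 and -0.11, all closer to 0 than the -0.34 of the members.

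Genes for proteins of the finished ribosome were read next. Of 79 cytosolic ribosomal protein genes, 55 were tested and 24 had no probe set of their own in the annotation used. Among the 55, 35 fell, none rose and 20 did not pass (63.6% lower, beside 16.2% of all tested genes), with a median change of -0.15. Rpsa had 10.65, 10.76 and 10.57 in arrays labelled KLF2∆/∆, against 11.17, 11.20 and 11.18 in LysMCre/Cre arrays (-0.52 ± 0.052, SE, adjusted p = 1.34e-07). Rplp1, Rps2 and Rps18 changed by -0.31, -0.29 and -0.37 (adjusted p = 6.18e-07, 7.96e-07 and 9.71e-07). Ribosomal protein genes have many near-identical pseudogenes, so their probe sets can share signal and single values are uncertain.

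Small nucleolar RNAs, the guides that the snoRNP proteins carry, gave a further readout. Of 33 tested snoRNA and scaRNA genes, 19 fell, none rose and 14 did not pass (57.6% lower, beside 16.2% of all tested genes), with a median of -0.21, and 21 more lay below the filter. Snord118, the U8 RNA needed for large-subunit processing, had 7.68, 8.29 and 7.92 in arrays labelled KLF2∆/∆, against 8.95, 9.60 and 8.94 in LysMCre/Cre arrays. Its groups lay apart in spite of a wide spread (-1.20 ± 0.14, SE, adjusted p = 1.7e-06). Snora73a and Snora73b, copies of the U17 RNA that probes may not tell apart, changed by -0.59 (adjusted p = 4.06e-07) and -0.52 (7.1e-06), and Snord49b by -0.47 (1.18e-05). Gas5 and Snhg5, transcripts whose introns carry snoRNAs, fell by 0.45 (adjusted p = 0.000259) and 0.32 (0.0132), and the other 7 host transcripts looked for had no probe set of their own. RefSeq places 11 snoRNA genes inside 6 of the members, and 3 of them were tested. Snord57 inside Nop56 fell by 0.27 (adjusted p = 0.000147), in the same direction as Nop56. Snord53 inside Wdr43 fell by 0.24 (adjusted p = 0.0198), while Wdr43 itself did not pass. Snord82 inside Ncl changed by -0.20 ± 0.13 and did not pass (adjusted p = 0.285).

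**Figure D3:**
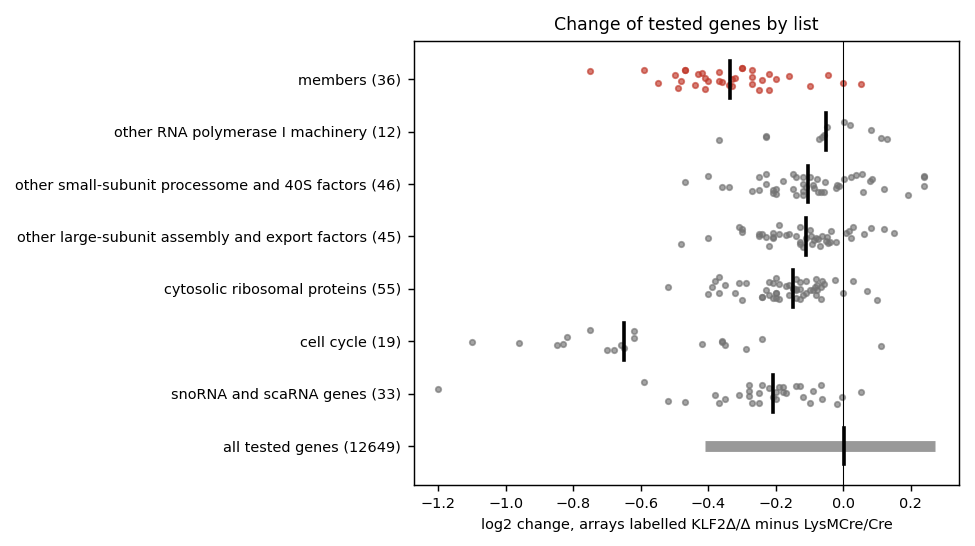
Each dot is the log2 change of 1 tested gene (arrays labelled KLF2∆/∆ minus LysMCre/Cre), in rows for the 36 members and for 6 other lists, with the list median as a black bar. The grey bar of the last row spans the 5th to 95th percentile of all tested genes, -0.41 to 0.27. The members' median lies at -0.34, left of the other ribosome lists and right of the cell cycle genes at -0.65.

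Myc dimerises with Max and binds the E-box, a motif found at many ribosome biogenesis genes, and the network was read beside the members. Myc had 9.69, 9.78 and 9.61 in arrays labelled KLF2∆/∆, against 10.53, 10.61 and 10.62 in LysMCre/Cre arrays (-0.89 ± 0.057, SE, adjusted p = 3.06e-10). Mxd1, a Max partner that represses Myc target genes, had 11.60, 11.54 and 11.48 in arrays labelled KLF2∆/∆, against 10.64, 10.44 and 10.64 in LysMCre/Cre arrays (0.97 ± 0.056, adjusted p = 6.79e-11). Max, the shared partner, changed by 0.36 ± 0.046 (adjusted p = 3.48e-06). Thus 1 of 11 network genes fell (9.09%) and 2 rose (18.2%), beside 16.2% and 13.6% of all tested genes, so the share called was near that of all genes. None of these 3 had overlapping groups. The other 8 did not pass. The part of the network in the members' change was not tested.

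**Figure D4:**
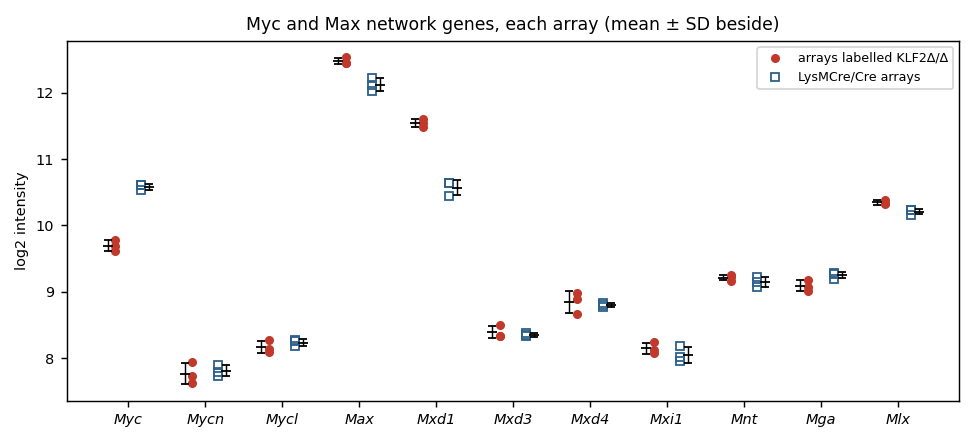
Log2 intensity of the 11 Myc and Max network genes on each array, with filled circles for arrays labelled KLF2∆/∆, open squares for LysMCre/Cre arrays, and the mean with its SD (n = 3) drawn beside each group. Myc is lower, and Mxd1 and Max are higher, in all 3 arrays labelled KLF2∆/∆ than in any LysMCre/Cre array.

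The promoters of the members were searched for the E-box, the motif that Myc-Max and Mxd1-Max dimers bind. RefSeq promoter windows (GRCm38.p6, 250 bases before to 50 after the annotated start) were at hand for 32 of 37 members. The E-box CACGTG, which reads the same on both strands, lay in the windows of 7 of these 32 genes (21.9%), against 11.3% of 10053 tested genes and 8.09% of all 27025 genes with a window. Below, each E-box is shown in capitals within its flanks, 5′ to 3′ on the gene's strand, because these are the members whose start region holds the motif.
Nop2: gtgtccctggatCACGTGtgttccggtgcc
Pes1: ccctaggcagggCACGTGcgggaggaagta
Tsr1: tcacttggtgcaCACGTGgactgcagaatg
Utp20: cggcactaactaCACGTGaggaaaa
Mybbp1a: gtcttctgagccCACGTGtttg
Wdr43: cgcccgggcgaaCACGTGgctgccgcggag
Ltv1: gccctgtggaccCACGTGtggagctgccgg

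In GRCm38.p6 these stretches lie at chr6:125131811-125131840 (Nop2, plus strand), chr11:3963965-3963994 (Pes1, plus strand) and chr11:74898092-74898121 (Tsr1, plus strand). The others lie at chr10:88826765-88826789 (Utp20, minus strand), chr11:72441355-72441376 (Mybbp1a, plus strand), chr17:71616220-71616249 (Wdr43, plus strand) and chr10:13193092-13193121 (Ltv1, minus strand). The motif of Nop2 begins 60 bases upstream of the annotated start, and the other 6 begin between 2 and 40 bases downstream of it, so those lie in the first transcribed bases. Of these 7 members 5 fell, with a median change of -0.33, and the 2 that did not pass were Wdr43 and Ltv1. Of the 24 tested members with a window but no E-box in it, 22 fell, with a median of -0.35. Of other motifs searched on both strands, the ETS core CGGAAG lay in the windows of 16 of 32 members (50%), against 32.2% of tested genes and 69% of ribosomal protein genes. The KLF-type CACCC box CCNCNCCC lay in those of 21 (65.6%), against 71.8% of tested genes. Letters in a window are not evidence of binding.

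Genes of dividing cells and markers of other cells moved in the same arrays, where 16.2% of all tested genes were called lower and 13.6% higher. Of 19 tested cell cycle genes 18 fell (94.7%), and the proliferation marker Mki67 changed by -1.10 (adjusted p = 4.92e-11). The exception was Pcna, the brightest of that list. It lay higher in arrays labelled KLF2∆/∆ without overlap (0.11) and did not pass (adjusted p = 0.055). Of 12 tested fibroblast and mesothelial markers 11 fell (91.7%), none rose and Msln did not pass, while Lum lay below the filter. The summed linear intensity of that list was 11563 to 12787 in arrays labelled KLF2∆/∆ and 20944 to 21072 in LysMCre/Cre arrays. Sums here and below cover every measured gene of a list, also those below the filter. Of 9 resident peritoneal macrophage markers 7 fell (77.8%), with sums of 6634 to 7362 in arrays labelled KLF2∆/∆ and 15741 to 16274 in LysMCre/Cre arrays. Prg4 held the largest change of that list, -4.37, and enters these sums. Serpinb2, the brightest of the list, weighs most in them. Its means were 11.66 in arrays labelled KLF2∆/∆ and 12.78 in LysMCre/Cre arrays. The means of Prg4 (6.63) and of the cell cycle gene Bub1 (7.25) in arrays labelled KLF2∆/∆ lay under the filter level. Both were thus tested only through the group where they were high, and their changes are given as measured. Of 12 tested general macrophage markers 7 rose (58.3%) and 2 fell (16.7%), with Cd163 below the filter. The sums of that list were 70281 to 71374 in arrays labelled KLF2∆/∆ and 63833 to 64359 in LysMCre/Cre arrays. The summed intensity of the members was 24674 to 27128 in arrays labelled KLF2∆/∆ and 31858 to 32386 in LysMCre/Cre arrays. The part of fewer dividing, stromal or resident cells in the members' change was not tested.

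Markers of other leukocytes were read in the same arrays, again beside 16.2% lower and 13.6% higher of all tested genes. Of 11 neutrophil markers 5 lay below the filter (S100a8, Ly6g, Cxcr2, Mpo and Ltf), and of the 6 tested 3 rose, Csf3r (0.38, adjusted p = 4.07e-07), Mmp8 (0.74) and S100a9 (0.26, with overlapping groups). The other 3 did not pass, Mmp9 (0.15, adjusted p = 0.0611), Camp (0.013, 0.93) and Elane (-0.13, 0.264). Csf3r, the receptor for a granulocyte growth factor, had 12.25, 12.32 and 12.32 in arrays labelled KLF2∆/∆, against 11.91, 11.88 and 11.97 in LysMCre/Cre arrays. The list summed to 7159 to 7507 in arrays labelled KLF2∆/∆ and 5840 to 6109 in LysMCre/Cre arrays. Csf3r was the brightest gene of the list and weighs most in this sum. In Mmp8, S100a9, Klrk1 and Cpa3 the lower group's mean lay under the filter level, so they were tested only through the group where they were high, and their changes are given as measured. None of 4 tested B cell markers passed, and Ms4a1 lay below the filter (sums of 1310 to 1363 in arrays labelled KLF2∆/∆ and 1258 to 1305 in LysMCre/Cre arrays). Ms4a1 enters these sums, with means of 7.65 in arrays labelled KLF2∆/∆ and 7.25 in LysMCre/Cre arrays. Of 3 tested T and NK cell markers Klrk1 differed (0.48), while Cd3d, Cd3g, Cd4, Ncr1 and Klrb1c lay below the filter (sums of 1114 to 1188 in arrays labelled KLF2∆/∆ and 992 to 1078 in LysMCre/Cre arrays). Both tested mast cell markers fell, Cpa3 (-0.52) and Tpsb2 (-0.42), while Cma1, Mcpt4, Kit and Fcer1a lay below the filter (sums of 866 to 926 in arrays labelled KLF2∆/∆ and 1068 to 1148 in LysMCre/Cre arrays). The part of these cells in the members' change was not tested.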

How the data were processed

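The authors deposited log2 intensities for 35557 probe sets on 6 arrays, made with Affymetrix Expression Console and RMA (background correction, quantile normalization and probe summary) per the submitters' processing notes. A second table deposited by the authors holds the same values as linear intensity, and its log2 values differed by at most 5.1e-05. The sources used here give no versions, no genome build for the arrays and no scan dates, so batches were not tested. RMA forces the probe intensities of the arrays to 1 distribution before the probe summary, so a change common to most genes may be hidden. The deposited values were close to but not at 1 distribution, with medians of non-control probe sets from 7.85 to 7.9.

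Leaving out 6613 control probe sets, 21789 probe sets name 1 gene, 1621 several and 5534 none. Gene identifiers gave current RefSeq symbols (GRCm38.p6) for 21698. Each of 19938 genes was read from its brightest probe set. A filter at the 40th percentile of the means of non-control probe sets (log2 7.49) kept 12649 genes.

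The comparison used limma 3.58.1 (R 4.3.3), with moderated variances that follow an intensity trend, two-sided, Benjamini-Hochberg adjustment over all tested genes and a threshold of 0.05. A change is the mean of arrays labelled KLF2∆/∆ minus that of LysMCre/Cre arrays. The number of arrays limits the precision, with a median SE of 0.0677. The test was first tried on simulated data. Values per array are given for up to 4 members of each role group with the smallest p, and pathway and marker genes are named likewise. Members and lists were chosen with earlier results of these data known. Motifs were searched in RefSeq promoter windows (GRCm38.p6). Alternatives covered the replicate block, scaling, array weights, variance model, filter, probe sets, threshold and each array left out.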

Additional observations from a re-analysis of the deposited data

How the results depend on the processing

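Of the 32 members called lower, 17 kept direction and call under all 15 alternatives, and Rrs1 did so under the 14 that tested it, since the filter at the 60th percentile left it out. No alternative called a member higher. The stricter threshold, an adjusted p of 0.01, was applied to counts only and is not among these 15. It called 28 members lower and 2630 genes in all. Among the 537 combinations of member and alternative, 508 kept direction and side of the threshold, 24 lost the call and 5 turned sign. The sign turned for 2 members that never passed, Nop9 (0.054 after quantile normalization, 0.0061 after median centring, 0.041 without KLF2∆/∆ replicate 1 and 0.023 without LysMCre/Cre replicate 2, in a range of -0.037 to 0.041 with arrays left out) and Ltv1 (0.022 without KLF2∆/∆ replicate 3, in a range of -0.1 to 0.022). Without moderation of variances, 20 members were called lower, against 32, and 2124 genes in all, against 3766, in a test with fewer degrees of freedom. The calls lost there were those of Nop58, Gar1, Nhp2, Nop10, Heatr1, Bysl, Bop1, Pes1, Wdr12, Nop2, Rrp1b and Ncl. Their unmoderated adjusted p ran from 0.0572 for Ncl to 0.183 for Bop1, and Dkc1 kept its call at 0.0259. With the arrays left out in turn, 28 to 32 members were called lower, their median change ran from -0.368 to -0.325, and 2935 to 3776 genes were called in all. Quantile normalization applied again gave 2120 genes higher and 1961 lower, against 1723 and 2043, and left 32 members lower with a median of -0.304. The labels do not say whether equal replicate numbers pair arrays of the groups. Across tested genes, deviations from the group mean had r of -0.091, 0.115 and -0.049 for same-numbered arrays and -0.109 to 0.182 for others. These r cannot decide it, because the deviations within a group are tied by their common mean. The members' median deviation from the group mean was -0.031, 0.083 and -0.055 in KLF2∆/∆ replicates 1, 2 and 3. In the same order it was -0.007, 0.02 and -0.011 in LysMCre/Cre arrays. With the replicate number as a block, 32 members were called lower and 3824 genes in all. The causes of these shifts were not tested.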
